A study of Mus musculus with 5 samples.

Results

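Genes for Polycomb repressive complexes, trithorax-group methylation cofactors, histone demethylases and the enzymes that write or oxidise DNA methylation were followed in the dorsal pancreatic bud of E10.5 mouse embryos with and without Ptf1a, the basic helix-loop-helix factor needed to form the pancreas. The set was given as a list of 41 gene symbols. For each gene the brightest of its probe sets with exactly 1 gene symbol was taken, by mean log2 signal over the 5 arrays, which gave values for 40 genes of the 18193 measured in all. Ash1l was not matched in the annotation used here and has no value. Embryos came from timed matings of Ptf1a heterozygous mice on the C57BL/6J background, and 3 Ptf1a null pools were compared with 2 Ptf1a heterozygote pools. The heterozygotes carry a mutant allele too, so there is no wild-type group, and the labels do not describe the allele. Each array received RNA from 3 pooled dorsal buds, freed of mesenchyme mechanically and amplified linearly in 2 rounds from the poly(A) tail. The labels do not say whether pools came from separate litters, so the tests measure the spread between these pools.

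Polycomb repressive complex 2 (PRC2) methylates histone H3 (H3K27) through EZH1 or EZH2, and Polycomb repressive complex 1 (PRC1) binds that mark through chromobox proteins and adds ubiquitin to histone H2A through RING1 or RNF2. Together they keep genes of other lineages silent, while trithorax-group complexes methylate H3K4 at active genes and histone demethylases remove the methyl marks. In the developing pancreas EZH2 is known as a brake on endocrine and pancreatic fate choices, and DNMT3 and TET enzymes set and remove cytosine methylation as cells commit.

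Median intensity ran from 13.7 to 17.5, and 60.9% to 65.2% of probe sets lay above a background level set on each array from bacterial control probe sets, at 3.03 to 3.29 on the normalised log2 scale. Pairs of arrays correlated at 0.849 to 0.854 within a genotype and at 0.838 to 0.862 between genotypes. The 3′ minus 5′ difference of the Gapdh control probe sets, a sign of how far RNA or its amplified copy is shortened, was 1.69 and 1.52 (log2) in heterozygotes and 1.42, 1.41 and 1.46 in nulls. The heterozygotes were thus higher without overlap, and the part of this in the values below was not tested. Precision is bounded by how few arrays there are. Heterozygotes gave log2 signals of 7.10 and 7.33 for Ptf1a and nulls 5.21, 6.07 and 5.00, without overlap (adjusted p = 0.651, limma untrended fit). The sources used here do not say whether this probe set lies in the deleted part. Of the markers of pancreatic epithelium, 9 of 9 measured were above background on every array. Of these 6 were lower in nulls and 3 higher, with a median change of -0.13. Pdx1 (-0.51) and Nkx6-1 (-0.97), transcription factors of pancreatic progenitors, were lower without overlap, and the keratins Krt8 (0.44) and Krt18 (0.67) were higher without overlap. The summed linear signal, of 4195 to 5104 in heterozygotes and 4992 to 6446 in nulls, runs opposite to most of its members. Mesenchyme markers also gave signal. Of 16 measured, only 5 were above background on every array, and Twist1 was below it on every array. Means were higher in nulls for 13 of the 16 and lower for 3. Their summed linear signal was 925 to 1258 in heterozygotes and 1325 to 1690 in nulls. That of 5 neural crest and glial markers was 104 to 105 and 143 to 217. That of 9 erythroid markers was 9510 to 11850 in heterozygotes and 7930 to 8846 in nulls, with Hba-a1 below background throughout, and that of 14 proliferation genes overlapped, at 15231 to 17099 and 14356 to 15995. The part of these other cells in the values below was not tested, and fewer cells of a type cannot be told apart from less RNA per cell.

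Most of the chromatin genes were detected in the bud. Signal was above background on all 5 arrays for 36 of the 40 genes, or 90%, where 57% of all genes were. Of the other 4, Cbx7 and Cbx8 passed it on 3 arrays, Pcgf2 on 4 and Pcgf1 on none. None of the 40 passed the test for a genotype difference. The untrended limma fit called 0 of 40 at an adjusted p under 0.05, with 0% of all 45037 probe sets called and 0 members at an unadjusted p under 0.05 (4.47% of genes reached that). The trended limma fit, in which the prior variance follows signal, also called 0 of 40 against 0.0178% of probe sets, with 1 member at an unadjusted p under 0.05 (4.47% of genes). Adjusted p-values of the members were 0.981 or more untrended and 0.976 or more trended. The median log2 change, null minus heterozygote, was -0.010 over the members and -0.012 over all genes, with 19 members higher (47.5%, against 49.1% of genes) and 21 lower. With median centring the split was 14 to 26, and without normalisation it was 12 to 28, where the median of all genes itself moved to -0.095 and -0.14. A change of at least 0.5 in size was measured for 9 of 40 members, or 22.5%, and for 39.8% of genes. Among genes above background on every array it was 5 of 36 members, or 13.9%, and 18.8% of genes. A change of at least 1 was measured for 0 of those 36, where 2.82% of such genes had it.

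**Figure D1:**
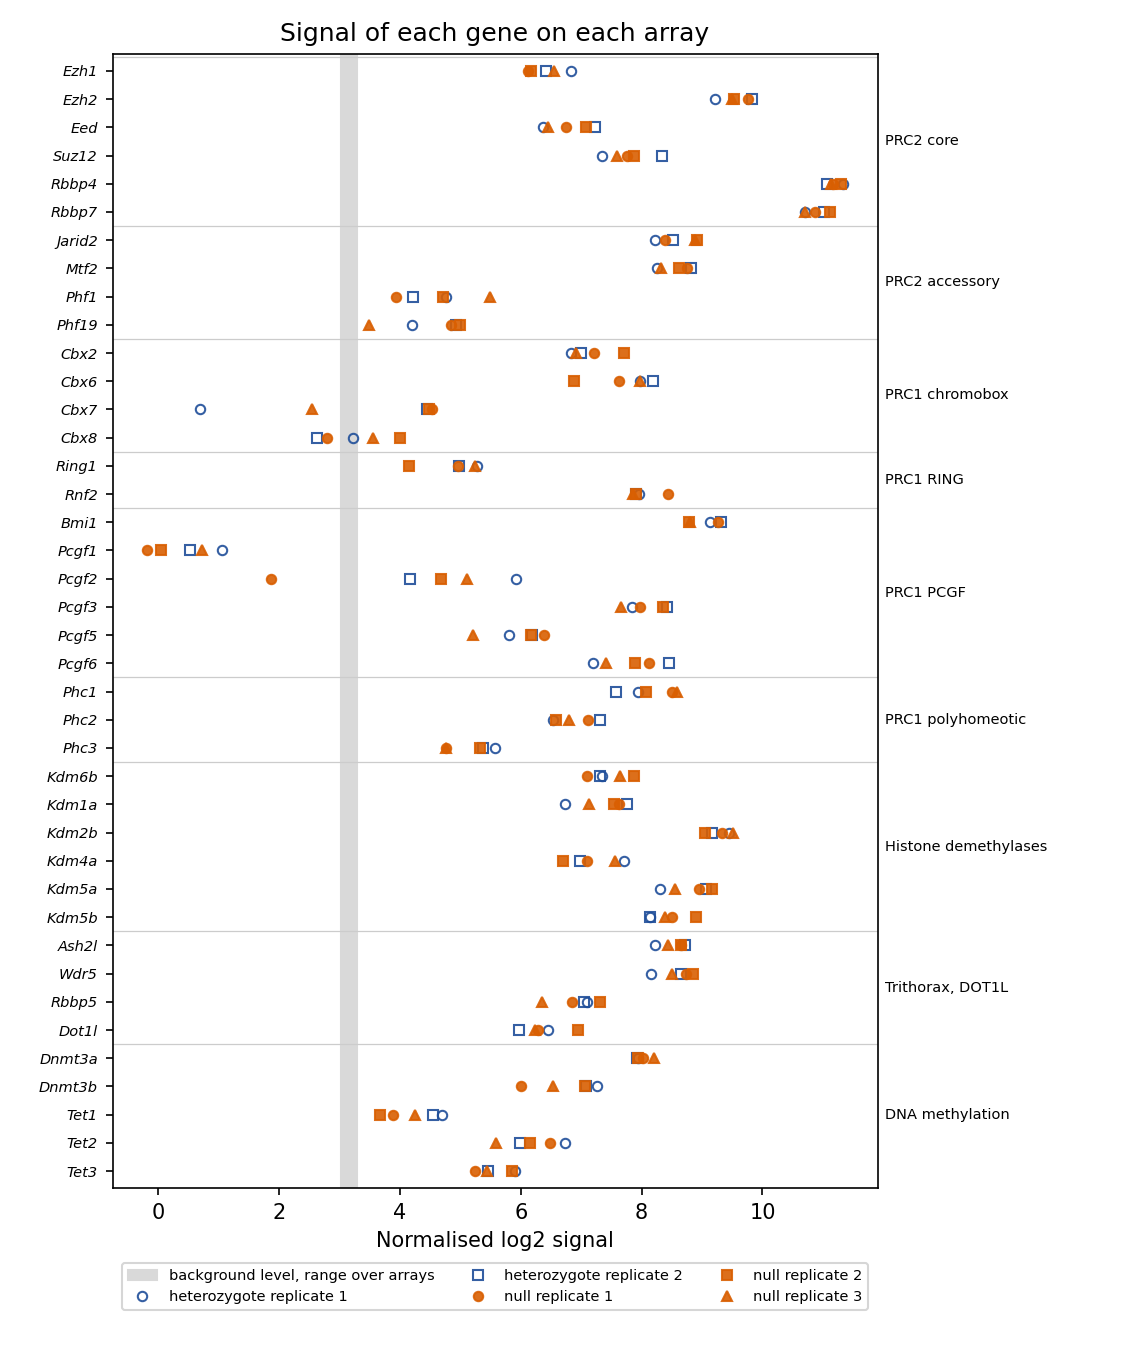
Normalised log2 signal of the 40 genes on each of the 5 arrays, with open blue symbols for the 2 heterozygote pools and filled orange symbols for the 3 null pools, and the background level as a grey band from 3.03 to 3.29. Heterozygote and null symbols interleave for most genes, and Pcgf1 lies left of the band on every array. Signals of different genes come from different probes and are not comparable in height.

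The genotypes overlapped at all 6 genes of the PRC2 core. Ezh2, the main methyltransferase of dividing progenitors, gave log2 signals of 9.22 and 9.83 in heterozygotes and 9.76, 9.53 and 9.49 in nulls, so that all 3 null arrays fell between the 2 heterozygote arrays. Its change was 0.071 (95% interval -0.91 to 1.06, SE 0.38). Ezh1, its paralogue of resting cells, gave 6.83 and 6.42 in heterozygotes and 6.12, 6.16 and 6.54 in nulls, a change of -0.35 (interval -1.32 to 0.61) with overlapping groups. Suz12 and Eed, the scaffold and the reader of the mark, had changes of -0.094 and -0.038. The histone-binding subunits Rbbp4 and Rbbp7 had changes of 0.0002 and 0.042, and the interval for Rbbp4 was -0.88 to 0.88. These intervals, from the untrended fit, thus allow changes of about that size in either direction. In the trended fit the SEs of the core genes were smaller. They ran from 0.14 for Rbbp4 to 0.35 for Eed, against 0.34 and 0.45 untrended. The split of the 6 core genes, 3 higher and 3 lower, became 0 and 6 with median centring or without normalisation, where all genes shifted too.

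The accessory subunits steer PRC2 to its targets. Jarid2, a cofactor that recruits the complex, had log2 signals of 8.22 and 8.51 in heterozygotes and 8.39, 8.92 and 8.88 in nulls, a change of 0.36 (interval -0.62 to 1.35) with overlapping groups. Its 3 probe sets had changes of 0.25 to 0.36. The Polycomb-like proteins Mtf2, Phf1 and Phf19 had changes of 0.033, 0.22 and -0.12. Phf1 and Phf19 were the more scattered, with null SDs of 0.78 and 0.84 (n = 3) against 0.22 for Mtf2.

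Catalytic RING subunits of PRC1 did not separate the genotypes. Rnf2 gave log2 signals of 7.95 and 7.90 in heterozygotes and 8.44, 7.91 and 7.85 in nulls, a change of 0.14 (interval -0.84 to 1.12), with null replicate 1 above the rest. Ring1 gave 5.28 and 4.98 in heterozygotes and 4.95, 4.15 and 5.24 in nulls, a change of -0.35 (interval -1.57 to 0.87), with null replicate 2 lowest.

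The PCGF subunits define which form of PRC1 assembles, and all 6 had lower means in nulls, with a median change of -0.20 and none without overlap. The direction of each was the same with median centring, without normalisation and with an offset of 16, but with all probe sets of a gene averaged 1 of the 6 was higher. Without heterozygote replicate 2, which leaves 1 heterozygote array, Pcgf3, Pcgf5 and Pcgf6 turned to 0.16, 0.12 and 0.62. Without null replicate 3 they were at 0.034, 0.29 and 0.19. Bmi1 (PCGF4), a factor for stem cell self-renewal, gave 9.12 and 9.31 in heterozygotes and 9.26, 8.78 and 8.80 in nulls, a change of -0.27 (interval -1.22 to 0.68). Its second probe set, 1417493_at, gave 8.24 and 8.36 in heterozygotes and 8.87, 8.67 and 8.46 in nulls. That is a change of 0.37, in the other direction and without overlap, so the 2 probe sets of Bmi1 disagree. Pcgf2, also called Mel18, had the widest interval of the family (-1.16, interval -4.23 to 1.91). Its signal was 5.92 and 4.17 in heterozygotes and 1.87, 4.68 and 5.10 in nulls, with only null replicate 1 below background. Pcgf3, Pcgf5 and Pcgf6, subunits of the variant complexes, had changes of -0.14, -0.072 and -0.011. Pcgf1, of the complex with KDM2B, had -0.59 but was below background on every array, so that no fold is given.

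Chromobox proteins read the PRC2 mark. Cbx2 gave log2 signals of 6.84 and 7.0 in heterozygotes and 7.22, 7.71 and 6.91 in nulls, a change of 0.36 (interval -0.69 to 1.41). Null replicate 3 lay between the heterozygotes. Cbx6 gave 7.98 and 8.19 in heterozygotes and 7.62, 6.88 and 7.97 in nulls, a 1.51-fold lower signal (change -0.60, interval -1.80 to 0.61). The groups did not overlap, but null replicate 3 and heterozygote replicate 1 were almost equal. Cbx7 and Cbx8 were dim. Cbx7 had a change of 1.28 on arrays that ran from 0.69 to 4.53, and without heterozygote replicate 1 its change was -0.60. Cbx8 had 0.53.

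The polyhomeotic proteins join PRC1 complexes to one another. Phc1 was 1.55-fold brighter in nulls, at 7.95 and 7.57 in heterozygotes and 8.51, 8.08 and 8.58 in nulls (change 0.63, interval -0.35 to 1.61). All 3 null arrays lay above both heterozygotes. It was the 1 member with an unadjusted p under 0.05 in the trended limma fit (adjusted p = 0.976, trended SE 0.26), and its groups overlapped with median centring and without normalisation. Phc3 went the other way, at 5.57 and 5.38 in heterozygotes and 4.76, 5.33 and 4.76 in nulls (change -0.52, interval -1.52 to 0.47). Null replicate 2 came close to heterozygote replicate 2. Phc2 had a change of -0.090.

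Among the histone demethylases 4 of 6 were higher in nulls and 2 lower, where 49.1% of all genes were higher. That split was the same under each scaling, but without normalisation Kdm1a and Kdm5a were only at 0.027 and 0.012. Without heterozygote replicate 1, which leaves 1 heterozygote array, Kdm1a, Kdm5a, Kdm2b and Kdm4a turned to -0.33, -0.17, 0.13 and 0.14. Kdm6b, which removes the PRC2 mark, gave log2 signals of 7.34 and 7.31 in heterozygotes and 7.09, 7.87 and 7.64 in nulls (change 0.21, interval -0.83 to 1.25). The heterozygotes fell inside the null range. Kdm1a (LSD1), a demethylase of H3K4 in corepressor complexes, gave 6.74 and 7.76 in heterozygotes and 7.62, 7.54 and 7.13 in nulls (change 0.18, interval -1.03 to 1.39), with the nulls inside the heterozygote range. Kdm5b, which removes methyl groups from H3K4, is added here after its values were seen, because its groups did not overlap. It gave 8.15 and 8.13 in heterozygotes and 8.49, 8.90 and 8.38 in nulls, 1.37-fold brighter (change 0.45, interval -0.49 to 1.40). Its paralogue Kdm5a had 0.21. Kdm2b, which recruits a variant PRC1 to unmethylated CpG sites, had -0.0090, and Kdm4a, a demethylase of H3K9 and H3K36, had -0.22.

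WDR5, RBBP5 and ASH2L are subunits shared by the MLL and SET1 methyltransferase complexes. Ash2l, Wdr5 and Rbbp5 had changes of 0.11, 0.29 and -0.24, each with overlapping groups. Dot1l, the H3K79 methyltransferase, gave log2 signals of 6.46 and 5.97 in heterozygotes and 6.29, 6.94 and 6.24 in nulls (change 0.27, interval -0.82 to 1.37). Null replicate 2 was highest and the other nulls lay between the heterozygotes. The other probe set of Dot1l, 1439488_at, had a change of 1.34 without overlap, and heterozygote replicate 2 was below background there.

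In the DNA methylation group 4 of 5 genes had lower means in nulls, with a median change of -0.29. Of all 18193 genes, 9263 had lower means. Dnmt3b, a de novo methyltransferase of early embryonic cells, gave log2 signals of 7.26 and 7.07 in heterozygotes and 6.01, 7.06 and 6.54 in nulls, 1.55-fold lower (change -0.63, interval -1.80 to 0.54). The groups did not overlap, though null replicate 2 was only just below heterozygote replicate 2. Its other probe set had -0.71 with overlapping groups. Dnmt3a, the de novo enzyme of later stages, was close to constant at its brightest probe set. It gave 7.95 and 7.93 in heterozygotes and 8.02, 7.94 and 8.21 in nulls (change 0.12, interval -0.75 to 0.99). Over its 5 probe sets the change ran from -0.26 to 0.56. Tet1, which oxidises methylcytosine, gave 4.69 and 4.55 in heterozygotes and 3.88, 3.67 and 4.25 in nulls, 1.61-fold lower (change -0.69, interval -1.65 to 0.27, SE 0.37). All 3 null arrays lay below both heterozygotes, and 4 of 4 Tet1 probe sets had lower means, from -0.20 to -1.07. Only the brightest of them was above background on every array. Tet2 and Tet3 had changes of -0.29 and -0.18 with overlapping groups. The second Tet2 probe set, 1455300_at, had 0.22. Without normalisation 5 of the 5 genes were lower, where the median of all genes itself moved to -0.14. Without heterozygote replicate 1, which leaves 1 heterozygote array, Tet2 and Tet3 turned to 0.078 and 0.052.

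**Figure D2:**
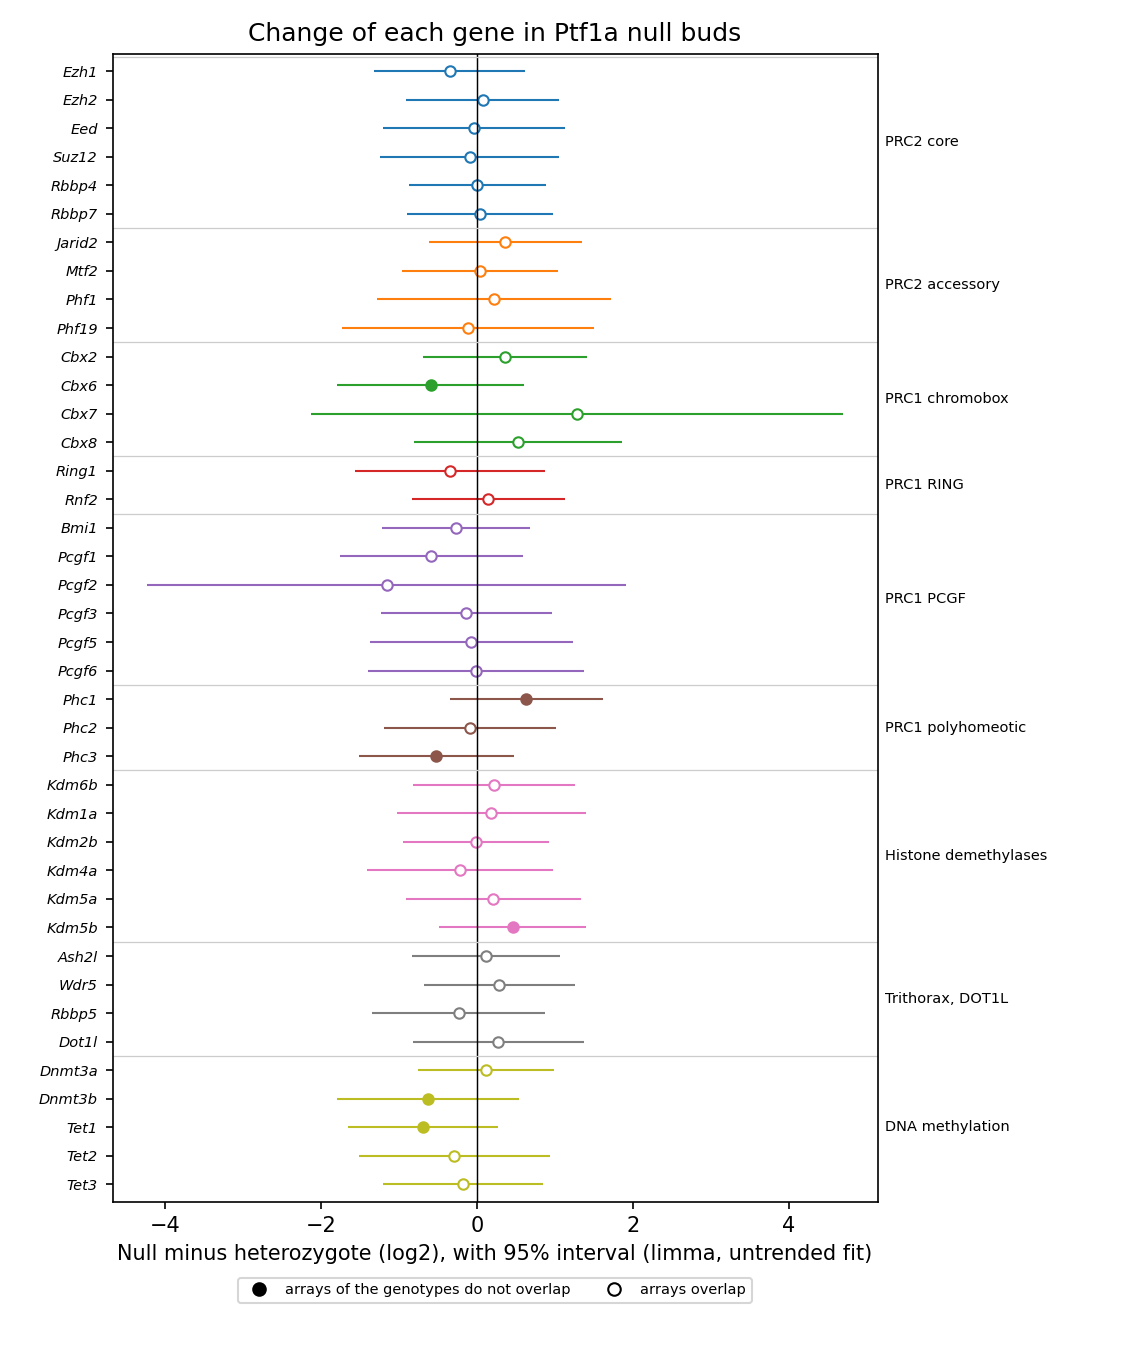
Null minus heterozygote difference in log2 signal for each of the 40 genes, with its 95% interval from the untrended limma fit. Filled points mark genes whose null and heterozygote arrays do not overlap. Every interval spans 0. Cbx7 and Pcgf2 have the widest ones, -2.13 to 4.69 and -4.23 to 1.91.

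The arrays of the genotypes did not overlap for 6 of 40 members, or 15%, where 19.9% of all genes showed this. Among genes above background on every array it was 6 of 36, or 16.7%, against 19.6% of genes. Phc1 and Kdm5b were higher in nulls (2 members, 9.82% of genes) and Cbx6, Phc3, Dnmt3b and Tet1 lower (4 members, 10.1% of genes). Neither share was above that of all genes. The split became 1 higher and 5 lower with median centring or without normalisation. With each array left out in turn the sign did not change, as groups without overlap fix in advance. Across those fits Tet1 ran from -0.85 to -0.57, Dnmt3b from -0.90 to -0.37, Cbx6 from -0.83 to -0.29, Phc3 from -0.73 to -0.42, Phc1 from 0.44 to 0.81 and Kdm5b from 0.30 to 0.56.

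Promoters of the chromatin genes were rich in CpG pairs, the sites at which DNMT3 and TET enzymes act and which KDM2B binds when unmethylated. In the RefSeq promoter table (build GRCm38.p6) 35 of the 40 genes matched, with 46 windows of 250 bases upstream of a start. Of these, 89.1% held 10 or more CG pairs, with a median of 21. The share was 37.8% of all 32851 windows, 57.4% of windows of genes measured on the array and 73.8% of windows of genes above background on every array. The letters CANCTG, an E-box of the kind that basic helix-loop-helix factors bind, were searched on both strands, where the other strand reads CAGNTG. A palindromic match such as CAGCTG fits both spellings. They were in 12 of the 46 windows (26.1%), in 44.8% of all windows, in 41.8% of those of genes measured on the array and in 37.7% of those of genes above background on every array. For the 6 genes whose arrays did not overlap, the 250 bases before the start are printed 5′ to 3′ with each CG pair in capitals, to show how this density varies. Phc1 and Kdm5b, higher in nulls, have 8 and 13 pairs, and Phc3, Tet1, Cbx6 and Dnmt3b, lower in nulls, have 12, 15, 20 and 21. The Cbx6 and Dnmt3b windows each hold 1 CANCTG match, and the other 4 hold none.
Phc1 (chr6:122340228-122340477, minus strand): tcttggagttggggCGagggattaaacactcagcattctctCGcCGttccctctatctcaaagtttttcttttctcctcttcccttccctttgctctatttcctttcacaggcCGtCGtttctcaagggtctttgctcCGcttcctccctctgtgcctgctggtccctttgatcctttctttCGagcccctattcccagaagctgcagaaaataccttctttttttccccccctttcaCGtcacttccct
Kdm5b (chr1:134559928-134560177, plus strand): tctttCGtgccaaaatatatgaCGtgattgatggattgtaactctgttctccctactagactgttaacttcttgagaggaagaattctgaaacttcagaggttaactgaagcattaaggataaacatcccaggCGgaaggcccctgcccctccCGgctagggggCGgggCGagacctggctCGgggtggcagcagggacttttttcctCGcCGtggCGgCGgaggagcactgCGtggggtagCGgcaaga
Cbx6 (chr15:79834334-79834583, minus strand): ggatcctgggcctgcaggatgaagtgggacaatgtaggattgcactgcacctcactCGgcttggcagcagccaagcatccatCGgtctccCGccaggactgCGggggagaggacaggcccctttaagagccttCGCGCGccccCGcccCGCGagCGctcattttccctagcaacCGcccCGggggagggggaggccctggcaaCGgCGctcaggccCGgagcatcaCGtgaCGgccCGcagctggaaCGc
Phc3 (chr3:30969416-30969665, minus strand): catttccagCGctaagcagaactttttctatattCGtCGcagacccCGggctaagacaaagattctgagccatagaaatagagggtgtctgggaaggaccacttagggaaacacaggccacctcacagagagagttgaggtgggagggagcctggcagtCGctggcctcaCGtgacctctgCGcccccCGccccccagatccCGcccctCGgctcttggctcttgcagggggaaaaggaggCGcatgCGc
Dnmt3b (chr2:153649199-153649448, plus strand): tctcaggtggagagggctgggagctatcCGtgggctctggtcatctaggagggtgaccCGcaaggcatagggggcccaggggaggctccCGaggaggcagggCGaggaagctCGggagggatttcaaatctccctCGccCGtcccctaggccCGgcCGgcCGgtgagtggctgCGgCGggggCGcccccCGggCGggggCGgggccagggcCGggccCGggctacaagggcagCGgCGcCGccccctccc
Tet1 (chr10:62887325-62887574, minus strand): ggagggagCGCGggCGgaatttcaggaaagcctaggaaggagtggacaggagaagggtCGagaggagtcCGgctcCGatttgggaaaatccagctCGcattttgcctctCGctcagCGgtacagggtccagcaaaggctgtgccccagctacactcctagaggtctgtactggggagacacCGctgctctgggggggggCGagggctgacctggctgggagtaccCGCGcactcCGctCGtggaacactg

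How far a gene's value depended on the probe set was checked over all 105 probe sets of the members. More than 1 probe set was present for 33 genes, and in 18 of them the probe sets gave changes of both signs. Of the 105, 19 (18.1%) had genotypes without overlap, where 20% of all probe sets did. Of these, 11 were higher in nulls (9.9% of all probe sets) and 8 lower (10.1% of all probe sets). Among genes with 3 or more probe sets, all had the same sign for Kdm5b (4 probe sets, 0.31 to 0.85), Tet1 (4), Jarid2 (3), Pcgf5 (3) and Pcgf6 (3). Kdm5b had a second probe set without overlap, 1427142_s_at, at 6.69 and 6.84 in heterozygotes and 7.45, 7.89 and 7.51 in nulls (change 0.85, trended adjusted p = 0.976 by limma). Ash2l had one too, 1420615_at, at 5.60 and 5.36 in heterozygotes and 5.93, 6.68 and 6.79 in nulls, a change of 0.99 against 0.11 at its brighter probe set. Cbx6 was contradictory. Its brighter probe set, 1424407_s_at, was lower in nulls without overlap, and 1429290_at was higher without overlap, at 5.12 and 3.68 in heterozygotes and 5.90, 5.76 and 5.40 in nulls (change 1.29). Both were above background on every array, and a name ending in _s_at marks a probe set that can match several transcripts. Dnmt3a likewise had 1460324_at at 0.56 and 1423064_at at -0.26, each without overlap. An unadjusted p under 0.05 in the untrended fit was found at 4 of the 105 (3.81%, against 5.52% of all probe sets). These were 1440203_at of Pcgf3 (1.35), 1459811_at of Mtf2 (2.50), 1453636_at of Pcgf5 (-1.92) and 1446699_at of Kdm4a (2.35), and none of them was above background on all 5 arrays. In the trended fit it was 6 of the 105 (5.71%, against 4.93%), at Cbx6, Pcgf3, Phc1, Kdm5b, Ash2l and Dot1l.

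**Figure D3:**
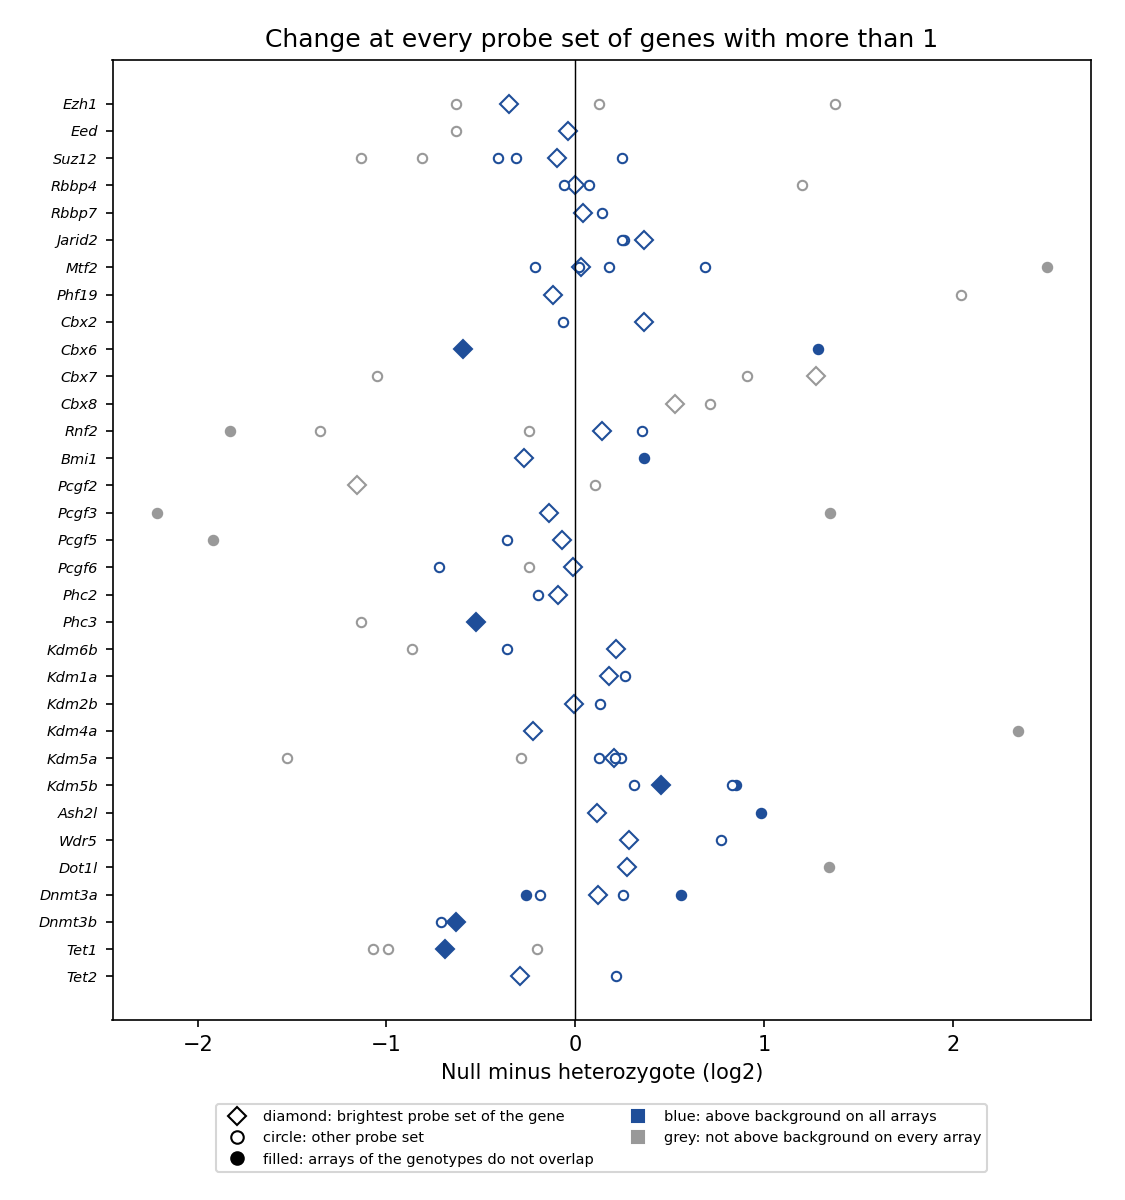
Null minus heterozygote difference in log2 signal at every probe set of the 33 genes with more than 1, diamonds for the brightest and circles for the others. Blue marks probe sets above background on all 5 arrays and filled symbols those whose genotypes do not overlap. The 2 blue filled symbols of Cbx6 lie on opposite sides of 0, at -0.60 and 1.29, and those of Kdm5b on the same side, at 0.45 and 0.85.

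For most members the 2 heterozygote pools differed from each other by more than the genotype means did. This held for 25 of 40 members, or 62.5%, and for 64.6% of all genes. A difference between 2 single arrays scatters more than one between group means. Most genes would thus meet this without any genotype effect, and nothing is concluded from the count. Of the PRC2 core genes 4 of 6 were higher on heterozygote replicate 2 than on replicate 1, with Suz12, Eed and Ezh2 at 0.99, 0.87 and 0.60. Ezh1 and Rbbp4 went the other way, at -0.41 and -0.25. The variant PRC1 subunit Pcgf6 was higher on replicate 2 too (1.26). Of the demethylases 2 of 6 were, Kdm1a (1.03) and Kdm5a (0.76). The DNA methylation genes were 0 of 5 higher on replicate 2, with a median of -0.19. Over all 40 members 19 were higher on replicate 2 (47.5%, against 50.9% of genes) with a median of -0.014, so the difference was not shared by the whole set. The same contrast was 0.35 in the median for 9 epithelial markers, -0.58 for 16 mesenchyme markers, 0.49 for 9 erythroid markers and 0.087 for 14 proliferation genes, and the part of these in the spread was not tested. Leaving out either heterozygote turned the sign of several small changes, although the remaining one has no replicate. Ezh2 had a change of -0.23 without heterozygote replicate 1 and 0.37 without replicate 2, Suz12 -0.58 and 0.40, Eed -0.47 and 0.39, and Kdm1a -0.33 and 0.69. The median over the members was -0.19 without replicate 1 and 0.14 without replicate 2.

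**Figure D4:**
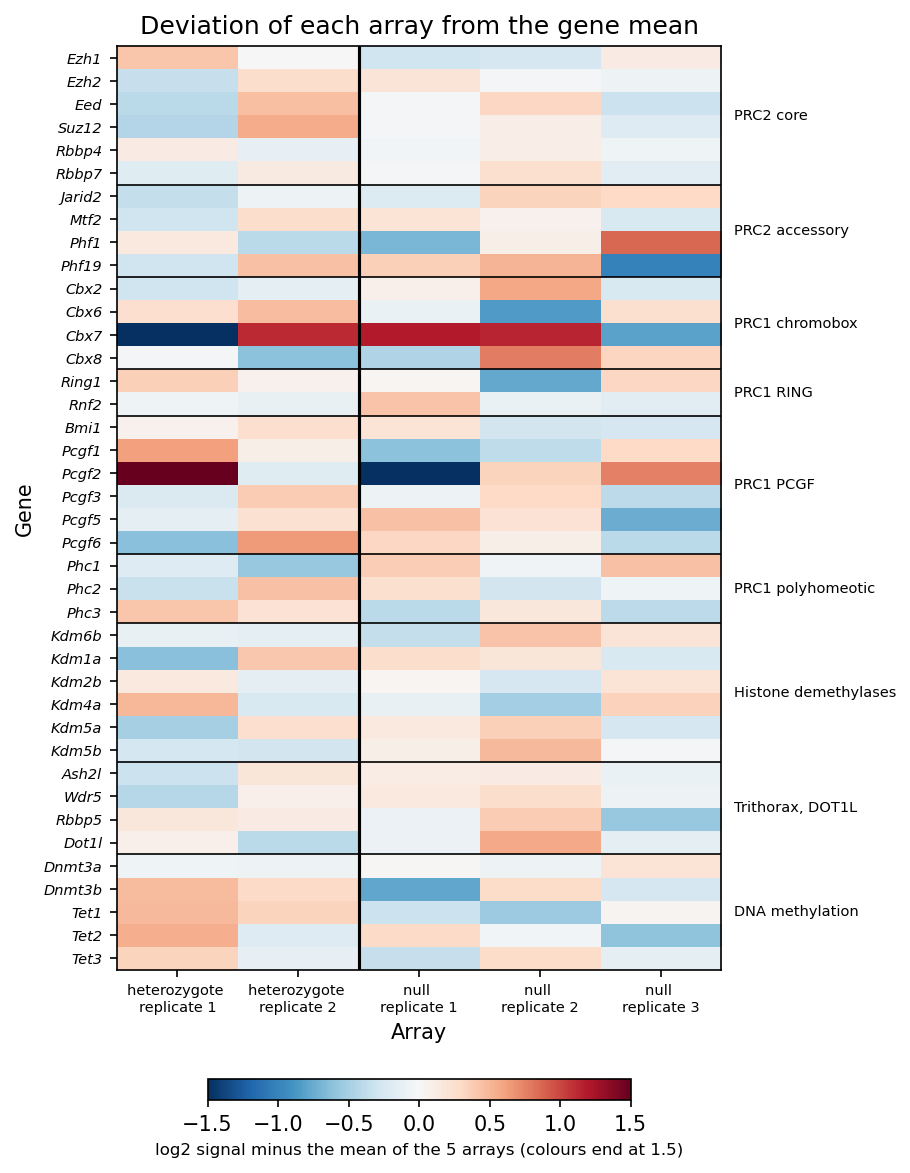
Deviation of each array from the mean of the 5 arrays, in log2 signal, for each of the 40 genes, red above and blue below, with colours ending at 1.5. Ezh2, Eed and Suz12 are blue on heterozygote replicate 1 and red on heterozygote replicate 2, while Tet1 and Dnmt3b are red on both heterozygotes. Ezh1 and Rbbp4, also of the PRC2 core, are higher on heterozygote replicate 1 than on replicate 2.

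Paralogues can shift in balance without either passing a test, so the within-array difference was compared for 7 pairs of them. This used a two-sided exact permutation test, whose smallest p with 2 against 3 arrays is 0.1. No pair could thus reach a p under 0.05, and the comparison is a description only. All 7 had a Benjamini-Hochberg adjusted p of 0.8 in that test. The difference Dnmt3b minus Dnmt3a was -0.68 and -0.86 in heterozygotes and -2.02, -0.88 and -1.67 in nulls. Its shift of -0.75 (exact permutation p = 0.2) left the groups without overlap, though null replicate 2 was almost level with heterozygote replicate 2. The other pairs overlapped. The shift was 0.42 for Ezh2 minus Ezh1, 0.49 for Rnf2 minus Ring1, 0.89 for Bmi1 minus Pcgf2, -0.92 for Cbx2 minus Cbx7, -0.51 for Tet1 minus Tet3 and 0.25 for Kdm5b minus Kdm5a. Cbx7 and Pcgf2 were below background on some arrays. With values raised to background the Cbx2 minus Cbx7 shift turned to 0.079 and the Bmi1 minus Pcgf2 shift was 0.48, and with an offset of 16 they were 0.019 and 0.30. With the mean over all probe sets of a gene the Rnf2 minus Ring1 shift turned to -0.24 and the Ezh2 minus Ezh1 shift to -0.059. Without heterozygote replicate 2 the Kdm5b minus Kdm5a shift was -0.14.

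Other genes of the same machinery were read from a list of 67, of which 63 were measured and 60 were above background on every array. Neither limma fit called any (0 of 63, with 0 at an unadjusted p under 0.05 untrended and 5 trended, where 4.47% of genes reached it in either fit, namely Uty, Asxl1, Asxl2, Bcor and Kdm3a). Without overlap, 9 were higher in nulls and 3 lower (9.82% and 10.1% of genes), and with median centring these counts were 5 and 4. The MLL-family methyltransferase genes Kmt2a, Kmt2c and Kmt2d, named after their values were seen, had changes of 0.50, 0.53 and 0.55 without overlap, and Kmt2b had -0.30 without overlap. Kdm6a, the X-linked demethylase of the PRC2 mark, had 0.18 with overlapping groups. Its Y-linked relative Uty was at 5.89 and 6.42 in heterozygotes and 5.98, 3.00 and 4.80 in nulls. Kdm5d, Y-linked too, was at 6.86 and 6.39 in heterozygotes and 6.82, 5.36 and 5.05 in nulls. The labels do not give the sex of the embryos, and its part in these values was not tested. Maintenance methylation genes Dnmt1 and Uhrf1 had 0.21 and -0.28.

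Genes that Polycomb is known to keep silent outside their own domain, the posterior Hox genes with Cdkn2a and Cdkn2b, stayed dim in both genotypes. Of 16 measured, 0 were above background on all 5 arrays and 7 were above it on none. Without overlap, 3 of 16 were lower in nulls and 0 higher, where 10.1% and 9.82% of genes were. Hoxa10 was above background on 1 heterozygote array and on no null array, and Hoxa11 on both heterozygote arrays and no null array, at least 1.32-fold lower in nulls. Hoxc9, the 1 gene with an unadjusted p under 0.05 in the untrended limma fit (4.47% of genes), had 3.90 and 4.0 in heterozygotes, both above background, and 1.85, 2.56 and 2.76 in nulls, all below it. Its signal was at least 1.80-fold lower in nulls (adjusted p = 0.700 in that fit), with the null arrays set at the background level. Hoxb9, Hoxd10 and Hoxd13 were below background on every array. Cdkn2a was above it on 1 array and Cdkn2b on 1.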

How the data were processed

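The submitters deposited 1 table of linear intensity per probe set for 5 Affymetrix mouse expression arrays. The submitters' processing notes list GCOS and RMA, with no version or order, and the sources used here do not say more about how the deposited intensities were made. Here they were taken to log2 and quantile normalised, 64 control probe sets were left out, and 45037 were tested with limma 3.58.1 in R 4.3.3, untrended, with Benjamini-Hochberg adjustment over all of them. A trended robust fit was the alternative with most effect on calls. Background was the 95th percentile of 27 bacterial control probe sets per array. Of the probe sets, 34945 had 1 gene symbol, 932 several and 9160 none. A p-value here measures the spread between these pools.

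Values are given for members without overlap and a change of at least 0.5, for those with an unadjusted p under 0.05 and for the defining subunit or enzyme of each complex. Jarid2, Pcgf2 and Kdm5b are outside that rule and also have their values on each array given. Members and lists were chosen with earlier results of these data known. Alternatives were median centring, no normalisation, an offset of 16, a filter on dim probe sets, values raised to background, the mean over a gene's probe sets, each array left out, and a block on replicate number. The fits were tested on simulated data with known changes.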

Additional observations from a re-analysis of the deposited data

How the results depend on the processing

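No member was called under any setting run, so the alternatives bear on the count of probe sets called and on the median change of the members. The untrended limma fit called 0 of 45037 probe sets (2484 at an unadjusted p under 0.05) and the trended fit 8. In trended fits added after the data were seen, 11 were called without heterozygote replicate 1, 4 without heterozygote replicate 2, 1 without null replicate 2, 1 without null replicate 3 and 0 without null replicate 1. Without either heterozygote the other is alone, so the spread comes from the null arrays and the lone array is assumed to vary like them. The median change of the members was -0.156 with median centring and -0.200 without normalisation, and ran from -0.187 to 0.137 with 1 array left out. Under both scalings the median of all genes moved down as well, and the cause was not tested. With a replicate block no member and no probe set was called and the median was 0.079. Null replicate 3 has no heterozygote of the same number, so in that fit it adds nothing to the change. The block is thus close to leaving that array out (median 0.079) and is not a separate check. Same-numbered arrays correlated at -0.017 and 0.008 in their deviations. With 2 heterozygote arrays the deviations of one mirror those of the other, so this cannot tell whether the numbers pair the pools. In the untrended fit of 2 arrays against 3, changes under about 0.9 on the log2 scale lay inside the interval of even the steadiest members. That limit depends on the fit. The trended SE was smaller for bright members, such as Rbbp4 (0.14, against 0.34 untrended). It was larger for some dim ones, such as Cbx8 (0.82, against 0.52 untrended).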

Other observations

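Genes of pluripotent and germ cells, whose silencing is a textbook function of DNA methylation and variant PRC1, gave low signal in both genotypes. Of 6 measured, 0 were above background on all 5 arrays, and Nanog was below it on every array. Pou5f1 had log2 signals of 4.01 and 3.71 in heterozygotes and 3.35, 2.99 and 3.96 in nulls, and the other 5 also had overlapping groups. Markers of further cell types overlapped between genotypes in summed linear signal. Endothelial markers (8 genes) had 197 to 310.2 in heterozygotes and 162 to 385 in nulls, neuronal markers (6 genes) 586 to 715 and 546 to 732, and leukocyte markers (6 genes) 88.8 to 244 and 90.3 to 167.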
